A study of Mus musculus with 10 samples.

Results

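The genes described here are 8 transcription factors of kidney tubule identity, taken by name from the 21792 Ensembl genes that have values in the renal cortex of sham mice and mice with aristolochic acid nephropathy (AAN). *Hnf4a*, *Hnf4g*, *Esrra* and *Maf* are the 4 mature factors, and *Pax2*, *Pax8*, *Lhx1* and *Sox4* the 4 developmental factors. All 8 were matched by Ensembl identifier, and all 8 passed the filter of a mean of at least 0.1 FPKM (fragments per kilobase of transcript per M fragments). The 4 sham mice received PBS, and the 6 AAN mice received aristolochic acid, a plant nephrotoxin that damages mainly the proximal tubule, at 5 mg/kg in 1 intraperitoneal injection. All 10 mice were wild-type C57BL/6 males, 8 weeks old when treated, and were sampled at day 28. The tissue was whole cortex, so fewer cells of a type and less RNA per cell cannot be told apart.

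The nephron forms when mesenchymal progenitors turn into epithelium and the new tubule is patterned into segments. *Pax2*, *Pax8* and *Lhx1* are needed early in this sequence, and *Sox4* belongs to the SoxC family that is active in developing tissues. Later, nuclear receptors such as HNF4A drive the transporter and metabolic genes of the proximal tubule, and ERRα, encoded by *Esrra*, drives mitochondrial energy genes together with its coactivator PGC-1α. c-MAF, encoded by *Maf*, is a basic leucine zipper factor of the adult proximal tubule, and it is also made by macrophages.

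Depth recovered from low FPKM values lay between 15.8 and 17.5 M fragments for the sham group and between 13.4 and 16.5 M for the AAN group. Of the podocyte, thick limb, distal tubule and collecting duct markers 0 were listed at 0 in any mouse, which does not tell cortex from other parts of the kidney. FPKM are relative to the fragments of each library. Mitochondrially encoded genes took 39.5% to 61.4% of the summed FPKM in the sham group and 21.4% to 55.0% in the AAN group. Since FPKM are per length, these are not shares of the fragments. The median log2 change over the 17129 genes tested was 0.75 in the deposited values, 0.051 after rescaling by the median of ratios and -0.12 after quantile normalization. The changes of the 8 factors are therefore also given relative to that median or under these scalings. The sham mouse B607 and the AAN mouse B614 stood apart from their groups. Their deviations from the group means correlated at r = 0.60 across the 12271 genes that averaged 1 FPKM or more, while the other 23 pairs of a sham and an AAN mouse lay between -0.49 and 0.34. B607 had the highest value among sham mice for 6 of the 8 factors and B614 the highest among AAN mice for 4 of the 8, so results that rest on them are given with and without them.

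*Sox4* and *Pax2* rose and *Hnf4a* fell past both limits used here, which were a limma adjusted p up to 0.05 and a difference of 2-fold or more. Thus 2 of the 8 factors were higher, where 35.8% of all genes tested were higher by the same rule, and 1 of 8 was lower, where 3.43% of all genes were. With the adjusted p alone, 3 of 8 were higher (*Sox4*, *Pax2* and *Pax8*; 55.4% of all genes) and 2 of 8 lower (*Hnf4a* and *Esrra*; 6.00% of all genes). The values of the groups did not overlap for *Sox4*, which was higher in all 6 AAN mice (40.3% of all genes), nor for *Hnf4a* and *Esrra*, which were lower in all 6 (3.25% of all genes). Relative to the median of all genes, which leaves as many genes below as above, *Sox4* and *Pax2* lay above it. The other 6 factors lay below it, among them all 4 mature factors. Of these 6, *Pax8* (-0.069) and *Hnf4g* (-0.32, with an SE of 0.44 for its change) did not keep their side. *Pax8* was 0.26 above the median after quantile normalization, and *Hnf4g* 0.075 above it without B607. Rescaled by the median of ratios, 1 factor was higher past both limits (*Sox4*; 18.8% of all genes) and 3 were lower (*Hnf4a*, *Esrra* and *Lhx1*; 10.7%). After quantile normalization, 1 was higher (*Sox4*; 14.4%) and 2 lower (*Hnf4a* and *Lhx1*; 12.1%).

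**Figure D1:**
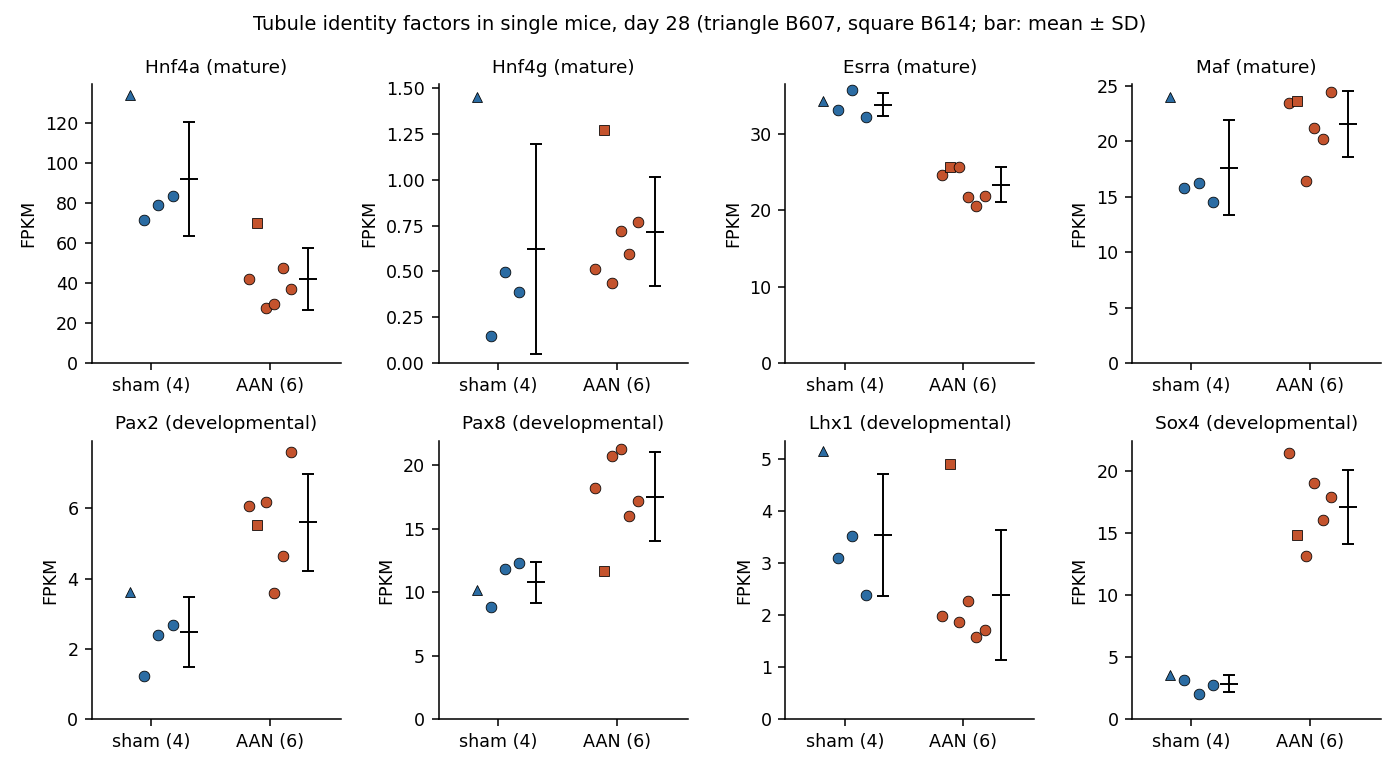
FPKM (vertical axes, from 0) of the 8 factors in each of 4 sham mice (blue) and 6 AAN mice (orange), with the mean and SD as bars, the triangle for B607 and the square for B614. *Sox4* lay at 2.01 to 3.57 in sham and 13.2 to 21.5 in AAN mice, *Hnf4a* and *Esrra* were lower in every AAN mouse, and the other 5 factors overlapped between the groups.

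*Hnf4a* (ENSMUSG00000017950) lies on the plus strand of chromosome 2 of GRCm38 from 163506808 to 163572910, with 5 annotated transcripts, and is known for its distal and proximal promoters. RefSeq (GRCm38.p6) gives a start for each, 40298 bases apart, and the sequences before them are shown because the gene has 1 value for both. Neither held a match on either strand to AAGGTCA, the ERR recognition letters, or to CAAAGTCCA and CAAAGTTCA, which HNF4 binds and which differ from each other by 1 base, so they have no capitals. A further planned motif, the HNF1 half-site GTTAAT, is not counted here, and its reverse complement ATTAAC occurs in the proximal sequence. Annotated exons of *Hnf4a* were left out, and the regions were chr2:163506607-163506807 (distal) and chr2:163546943-163547154 (proximal), both on the plus strand.
Hnf4a distal: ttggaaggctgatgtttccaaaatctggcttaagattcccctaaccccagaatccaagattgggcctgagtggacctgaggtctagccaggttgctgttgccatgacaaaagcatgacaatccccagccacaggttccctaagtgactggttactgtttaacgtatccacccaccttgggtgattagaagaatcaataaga
Hnf4a proximal: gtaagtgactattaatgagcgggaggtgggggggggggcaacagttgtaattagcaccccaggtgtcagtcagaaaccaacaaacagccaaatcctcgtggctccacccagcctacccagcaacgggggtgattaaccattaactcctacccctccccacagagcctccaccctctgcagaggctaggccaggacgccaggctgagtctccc
Over the 250 bases before all 32851 RefSeq starts, 4.08% held AAGGTCA, 0.384% CAAAGTCCA and 0.335% CAAAGTTCA. A missing match says only that these letters are not in the window, and the gene's FPKM cannot be divided between the promoters.

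*Hnf4a* encodes the nuclear receptor that sets the mature program of the proximal tubule, and it was the most abundant of the 8 factors per length in both groups. Its level was 134 FPKM in B607, 71.5 in B634, 79.3 in B636 and 83.4 in H249 among sham mice. Among AAN mice it was 41.8 FPKM in A483, 69.8 in B614, 27.4 in B630, 29.5 in B639, 47.4 in B642 and 37.2 in B666. Every AAN mouse lay below every sham mouse, with B614 just under the lowest of them. The mean fell from 92.1 ± 28.5 (SD, n = 4) to 42.2 ± 15.4 FPKM (SD, n = 6), with a log2 change of -1.15 (SE 0.27, adjusted p = 0.00318 from limma, and p = 0.00952 in an exact two-sided permutation test). This put *Hnf4a* at the 2.99 percentile of all log2 changes and at -1.90 relative to their median. The highest sham value decided the 2-fold call: without B607 the log2 change was -0.96 (adjusted p = 0.0105 from limma), without B614 it was -1.31, and without both it was -1.12 (adjusted p = 0.000731 from limma). Rescaled to the same FPKM total it was -0.79 (adjusted p = 0.0918 from limma). With the mitochondrially encoded genes left out of that total it was -1.13 (adjusted p = 0.00394 from limma). With median-of-ratios scaling, it was -1.92, where sham mice lay at 105 to 158 and AAN mice at 24.4 to 55.8 scaled FPKM, and after quantile normalization it was -1.27.

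The antisense gene *Hnf4aos* (chromosome 2, 163493807 to 163541720, minus strand) overlaps *Hnf4a* over 34913 bases and begins 5435 bases before the proximal start. It was at 6.80 ± 1.02 in the sham group (SD, n = 4) and 1.37 ± 1.27 FPKM in the AAN group (SD, n = 6), a log2 change of -2.61 (SE 0.49, adjusted p = 0.000767 from limma). The 2 genes share 0 annotated exonic bases, and whether the counting used strand is not given in the sources used here. *Hnf4aos* was named after its values were seen.

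*Hnf4g* (ENSMUSG00000017688, chromosome 3, 3508030 to 3658052, plus strand) encodes HNF4G, the paralog of HNF4A with a near-identical DNA-binding domain, and it was the least abundant of the 8 factors in both groups. The sham values were 1.45 FPKM in B607, 0.148 in B634, 0.497 in B636 and 0.390 in H249. The AAN values were 0.515 FPKM in A483, 1.27 in B614, 0.434 in B630, 0.720 in B639, 0.593 in B642 and 0.771 in B666. B607 and B614 were the highest of their groups, and the groups overlapped. These levels correspond to at most 6 to 67 fragments per sham mouse and 18 to 52 per AAN mouse over the 2630 exonic bases. The log2 change was 0.43 (SE 0.44, adjusted p = 0.413 from limma), but -0.19 after the median of ratios and -0.76 after quantile normalization, so its direction depends on the scaling. Without B607 it was 0.90 (adjusted p = 0.0469 from limma), and without B607 and B614 it was 0.74 (adjusted p = 0.0625 from limma).

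*Esrra* (ENSMUSG00000024955, chromosome 19, 6910977 to 6921813, minus strand) encodes the orphan receptor ERRα and had the smallest spread of the 8 factors relative to its mean. It was 34.3 FPKM in B607, 33.1 in B634, 35.7 in B636 and 32.2 in H249. In AAN mice it was 24.6 FPKM in A483, 25.7 in B614, 25.7 in B630, 21.7 in B639, 20.6 in B642 and 21.8 in B666. The groups were separated by more than their ranges, and neither B607 nor B614 stood out. The mean was 33.8 ± 1.54 in the sham group (SD, n = 4) and 23.4 ± 2.24 FPKM in the AAN group (SD, n = 6). The log2 change was -0.54 (SE 0.13, adjusted p = 0.00385 from limma, and p = 0.00476 in the exact two-sided permutation test, the smallest this design allows). It was thus lower beyond the spread between mice but under the 2-fold limit, at the 7.56 percentile of all changes and at -1.28 relative to their median. After the median of ratios the log2 change was -1.30, past both limits, and after quantile normalization -0.87. Rescaled to the same FPKM total it was -0.17 (adjusted p = 0.509 from limma), which ended the call by adjusted p. With the mitochondrially encoded genes left out of that total it was -0.52 (adjusted p = 0.00960 from limma). *Trmt112* overlaps its end over 73 exonic bases and was at 7.15 ± 3.19 in the sham group (SD, n = 4) and 5.15 ± 1.10 FPKM in the AAN group (SD, n = 6).

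*Maf* (ENSMUSG00000055435, chromosome 8, 115682942 to 115707794, minus strand) encodes c-MAF. It was 24.0 FPKM in B607, 15.8 in B634, 16.2 in B636 and 14.5 in H249, against 23.5 in A483, 23.6 in B614, 16.4 in B630, 21.2 in B639, 20.2 in B642 and 24.5 in B666. B607 lay among the AAN mice and the groups overlapped. The log2 change was 0.31 (SE 0.18, adjusted p = 0.157 from limma), -0.45 after the median of ratios (adjusted p = 0.0215 from limma) and -0.15 after quantile normalization, so no direction holds across scalings. Without B607 it was 0.46 (adjusted p = 0.0282 from limma). Beside it, all 7 macrophage markers rose past both limits, and their summed level was 34.3 to 53.2 FPKM in sham mice, against 544 to 1849 FPKM in AAN mice. *Itgam* was listed at 0 in 1 sham mouse, B607, and 0 of the 7 were at 0 in all mice of a group. With a sham mean of 0.0614 FPKM, *Itgam* passed the filter through the AAN group, so its call does not support a statement on the list. By the same rule 35.8% of all genes were higher. The part of the macrophage markers in the level of *Maf* was not tested.

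*Pax2* (ENSMUSG00000004231, chromosome 19, 44756045 to 44837871, plus strand) encodes the paired box factor that is needed for the nephric duct and early nephron, and in the adult kidney is known mainly from the collecting duct. It was 3.63 FPKM in B607, 1.23 in B634, 2.40 in B636 and 2.69 in H249. In AAN mice it was 6.05 FPKM in A483, 5.51 in B614, 6.19 in B630, 3.60 in B639, 4.64 in B642 and 7.60 in B666. Of the AAN mice 5 lay above every sham mouse, and B639 lay just under B607. The mean rose from 2.49 ± 0.991 (SD, n = 4) to 5.60 ± 1.38 FPKM (SD, n = 6), with a log2 change of 1.19 (SE 0.28, adjusted p = 0.00334 from limma, and p = 0.00952 in the exact two-sided permutation test). This was 0.45 above the median of all genes. The 2-fold call ended without the low sham mouse B634, at 0.91 (adjusted p = 0.00841 from limma), and with a pseudocount of 1, at 0.94. Rescaled by the median of ratios, the log2 change was 0.46 (adjusted p = 0.132 from limma) and after quantile normalization 0.33 (adjusted p = 0.257 from limma), so the call of *Pax2* holds for the deposited values and not under these scalings. The 7 distal tubule and collecting duct markers summed to 269 to 674 FPKM in sham and 167 to 872 FPKM in AAN mice, with 0 higher and 1 lower past both limits (*Slc4a1*, named after its values were seen). The count of lower ones was 0 without B607, 2 without B614 and 3 after the median of ratios (*Slc4a1*, *Aqp3* and *Aqp2*). Among all genes 35.8% were higher and 3.43% lower as deposited, and 10.7% were lower after the median of ratios. The part of these 7 markers in the level of *Pax2* was not tested.

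*Pax8* (ENSMUSG00000026976, chromosome 2, 24420560 to 24475599, minus strand) acts together with *Pax2* in early nephrogenesis and stays on in adult tubule epithelium. It was 10.2 FPKM in B607, 8.81 in B634, 11.8 in B636 and 12.3 in H249, against 18.2 in A483, 11.7 in B614, 20.7 in B630, 21.3 in B639, 16.0 in B642 and 17.2 in B666. Of the AAN mice 5 lay above every sham mouse, while B614 lay among the sham mice. The mean was 10.8 ± 1.59 in the sham group (SD, n = 4) and 17.5 ± 3.52 FPKM in the AAN group (SD, n = 6). The log2 change was 0.68 (SE 0.19, adjusted p = 0.00829 from limma, exact permutation p = 0.0238), under the 2-fold limit and -0.069 from the median of all genes. It was -0.080 after the median of ratios and 0.13 after quantile normalization, so its change was close to that of the median gene under each scaling. Rescaled to the same FPKM total it was 1.04, past both limits, where the median of all genes was 1.06. With the mitochondrially encoded genes left out of that total it was 0.70, under the 2-fold limit.

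*Lhx1* (ENSMUSG00000018698, chromosome 11, 84518284 to 84525535, minus strand) encodes a LIM homeodomain factor that marks the renal vesicle and patterns the early nephron. It was 5.14 FPKM in B607, 3.10 in B634, 3.51 in B636 and 2.38 in H249. In AAN mice it was 1.98 FPKM in A483, 4.89 in B614, 1.87 in B630, 2.27 in B639, 1.58 in B642 and 1.71 in B666. The 5 other AAN mice lay below every sham mouse and B614 above 3 of the 4. It was the developmental factor with a value below 0 for its log2 change, -0.61 (SE 0.31, adjusted p = 0.107 from limma, exact permutation p = 0.124). Without B614 the log2 change was -0.83 (adjusted p = 0.00651 from limma), which is less than 2-fold, without B607 it was -0.41 (adjusted p = 0.276 from limma), and without both it was -0.64 (adjusted p = 0.0110 from limma). With median-of-ratios scaling, it was -1.34 and after quantile normalization -1.49, past both limits under each scaling.

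*Sox4* (ENSMUSG00000076431, chromosome 13, 28948919 to 28953713, minus strand) encodes an HMG box factor. It is the member with the largest change, and the sequence before its RefSeq start, on the minus strand at chr13:28953714-28953949 and without its annotated exon, is shown for that reason. It held 0 matches to the 3 motifs searched before *Hnf4a*, and so has no capitals.
Sox4: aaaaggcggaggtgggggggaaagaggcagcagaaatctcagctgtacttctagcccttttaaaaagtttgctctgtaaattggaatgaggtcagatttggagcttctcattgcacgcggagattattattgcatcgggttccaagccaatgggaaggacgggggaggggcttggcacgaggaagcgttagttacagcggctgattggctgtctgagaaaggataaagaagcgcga
Of the 8 factors, 6 had at least 1 such region in the RefSeq table and together they had 9, of which 0 held a match to the motifs searched.

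*Sox4* was 3.57 FPKM in B607, 3.16 in B634, 2.01 in B636 and 2.73 in H249. In AAN mice it was 21.5 FPKM in A483, 14.9 in B614, 13.2 in B630, 19.1 in B639, 16.1 in B642 and 17.9 in B666. The lowest AAN mouse lay above the highest sham mouse by more than the whole sham range, and B614 was not apart from the other AAN mice. The mean rose from 2.87 ± 0.666 (SD, n = 4) to 17.1 ± 3.0 FPKM (SD, n = 6), with a log2 change of 2.55 (SE 0.19, adjusted p = 6.68e-07 from limma, and p = 0.00476 in the exact two-sided permutation test). That is 5.84-fold on the log2(FPKM + 0.1) scale, and 1.80 above the median of all genes. *Sox4* has 1 annotated transcript, so its values correspond to 159 to 300 fragments in sham mice, against 980 to 1696 in AAN mice. The antisense gene *Gm26735* shares 2616 exonic bases with it and was at 0.0479 to 0.113 FPKM in AAN mice. The log2 change of *Sox4* stayed between 1.79 and 2.90 over all 21 alternatives with their own fit, with adjusted p from limma of 5.27e-07 to 2.81e-05. *Sox4* is also expressed in lymphoid and mesenchymal cells. Beside its rise, all 6 injured tubule markers, all 7 fibroblast markers, all 5 T cell markers and all 7 proliferation markers rose past both limits. Of the proliferation markers 5 of 7 did so after the median of ratios and 6 of 7 after quantile normalization. Among all genes 35.8% were higher by this rule, and 18.8% and 14.4% under these scalings. *Havcr1*, *Postn* and *Ccnb1* had sham means of 0.0337, 0.0226 and 0.0448 FPKM and passed the filter through the AAN group. Their calls therefore do not support a statement on these lists. *Postn* and *Ccnb1* were named after their values were seen. The summed injured tubule level was 146 to 241 FPKM in sham and 1416 to 3603 FPKM in AAN mice, with *Havcr1* and *Krt20* listed at 0 in 1 sham mouse, B634, as was the T cell marker *Cd3d*. The fibroblast sum was 16.2 to 22.2 against 116 to 263 FPKM, the T cell sum 0.515 to 2.18 against 43.0 to 96.9 FPKM, and the proliferation sum 6.20 to 11.4 against 29.0 to 52.8 FPKM. Their part in the rise of *Sox4* was not tested.

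**Figure D2:**
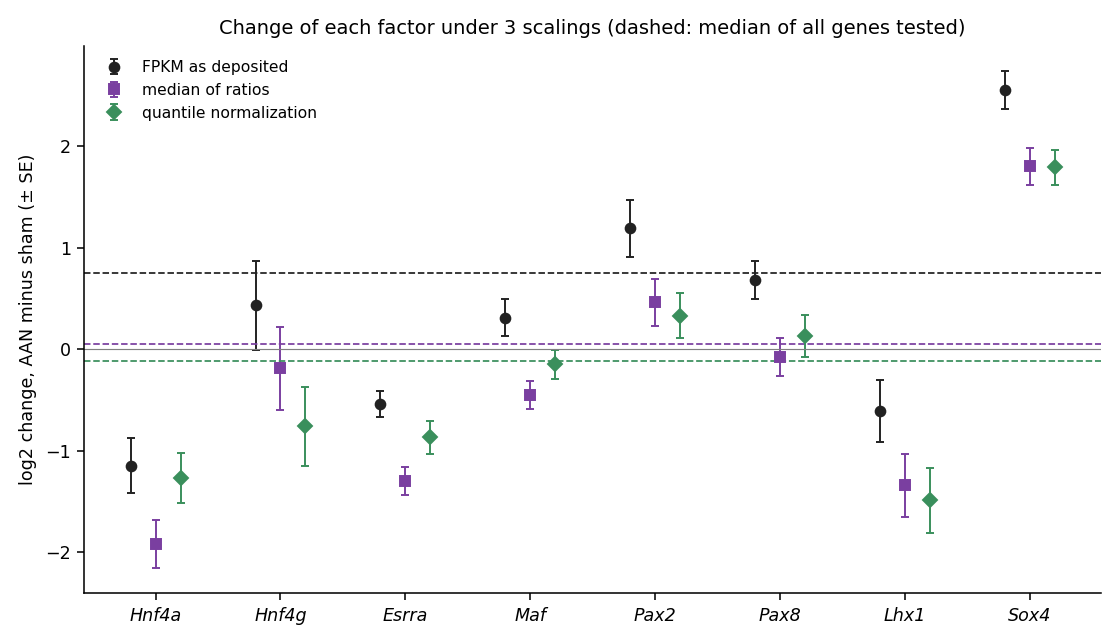
Log2 change, AAN minus sham, with its SE (vertical axis) for the 8 factors in the values as deposited (black circles), after the median of ratios (purple squares) and after quantile normalization (green diamonds), with the median of all genes tested as a dashed line of the same colour. *Sox4* lay above and *Hnf4a*, *Esrra* and *Lhx1* below both 0 and the median under each scaling, while *Hnf4g*, *Maf* and *Pax8* changed sign.

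Per length, the order of the mean levels in sham mice was *Hnf4a*, *Esrra*, *Maf*, *Pax8*, *Lhx1*, *Sox4*, *Pax2* and *Hnf4g*. *Lhx1*, *Sox4* and *Pax2*, at means of 3.53, 2.87 and 2.49 FPKM, could not be ranked, since each was above the next in 2 of 4 mice. In AAN mice the order was *Hnf4a*, *Esrra*, *Maf*, *Pax8*, *Sox4*, *Pax2*, *Lhx1* and *Hnf4g*. Here *Sox4* had reached the level of *Pax8*, with means of 17.1 and 17.5 FPKM and *Pax8* above *Sox4* in 2 of 6 mice. *Maf* was above *Pax8* in 4 of 6 AAN mice and *Esrra* above *Maf* in 5 of 6, where each had been higher in 4 of 4 sham mice. *Pax2* was higher than *Lhx1* in 6 of 6 AAN mice.

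Ratios within a mouse do not depend on a scaling factor for its library. *Hnf4a* was 22.6 to 39.4 times the level of *Sox4* in sham mice, against 1.55 to 4.69 times in AAN mice. The highest AAN ratio was that of B614, and the ratio of B607, 37.6, was within the range of the other sham mice. *Hnf4a* over *Pax8* was 6.73 to 13.1 for sham and 1.32 to 5.99 for AAN mice. *Esrra* over *Maf* was 1.43 to 2.22 (sham) and 0.893 to 1.57 (AAN), which overlap at B607. The mean log2 value of the 4 mature factors minus that of the 4 developmental factors was 1.97 in B607, 1.56 in B634, 1.73 in B636 and 1.58 in H249. In AAN mice it was 0.39 in A483, 0.89 in B614, 0.22 in B630, 0.41 in B639, 0.68 in B642 and 0.50 in B666. The difference between the group means was -1.19. The mature mean was 3.72 in sham and 3.48 in AAN mice, and the developmental mean was 2.01 and 2.97. Unlike the difference, this split depends on the scaling. As deposited, the median log2 change was -0.12 for the mature and 0.94 for the developmental factors. After the median of ratios it was -0.88 and 0.19. The mature minus developmental difference was -1.17 after the median of ratios and -1.18 without B607 and B614, and is given as a description, with no test. *Lhx1* went against the other developmental factors within the developmental mean, and *Hnf4g* and *Maf* were not lower in AAN mice in the deposited values.

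**Figure D3:**
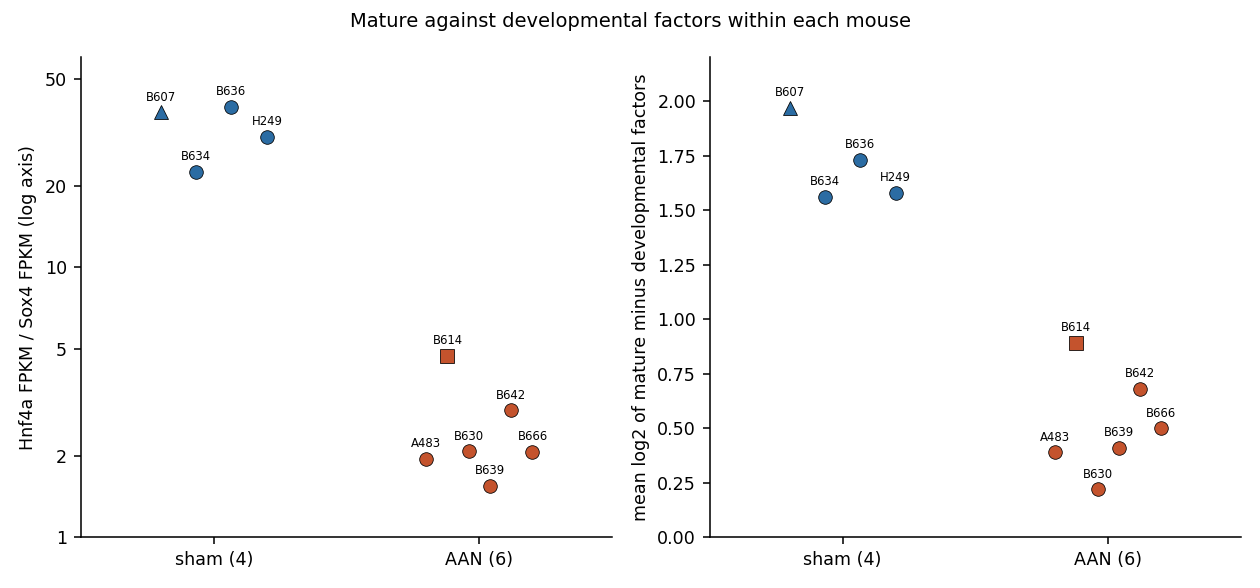
Ratio of *Hnf4a* to *Sox4* FPKM on a log axis (left) and mean log2 value of the mature minus that of the developmental factors (right) in each of 4 sham mice (blue) and 6 AAN mice (orange), labelled by tag. The ratio lay at 22.6 to 39.4 in sham and 1.55 to 4.69 in AAN mice, and B614 was the AAN mouse nearest to sham in both panels.

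The other mature tubule factors, a list of 19 genes for all segments, had a median log2 change of 0.27, below the 0.75 of all genes, with 3 higher and 0 lower past both limits. The counts of this and the following lists stand beside 35.8% higher and 3.43% lower among all genes, and beside 18.8% and 10.7% after the median of ratios. *Ehf*, an epithelial ETS factor, had a log2 change of 1.67 (SE 0.21, adjusted p = 3.72e-05 from limma), *Irx2* of 1.22 (SE 0.30, adjusted p = 0.00459) and *Gata3*, a factor of the collecting duct, of 1.03 (SE 0.18, adjusted p = 0.000502). After the median of ratios 0 of the 19 were higher and 5 lower past both limits, with *Ehf* at 0.94, *Irx2* at 0.49 and *Gata3* at 0.29. Among the 5 were *Esrrb* (-1.75), *Irx3* (-1.51), *Nr1h4* (-1.27) and *Vdr* (-1.17), which were named after their values were seen.

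Of 14 other kidney developmental factors, 10 were tested, and 5 were higher and 1 lower past both limits, with a median log2 change of 1.10. *Six2* is not among the genes analysed here, and *Eya1* and *Cited1* were among those under the filter. *Sox9*, a factor of nephron progenitors and regenerating tubules, rose from 0.143 ± 0.0408 (SD, n = 4) to 4.15 ± 1.54 FPKM (SD, n = 6), with a log2 change of 4.06 (SE 0.28, adjusted p = 4.24e-07 from limma). *Sox11*, of the same SoxC family as *Sox4*, was at 0 to 0.0146 FPKM in sham mice, against 0.414 to 1.44 FPKM in AAN mice, and its fitted log2 change of 3.41 (SE 0.30, adjusted p = 2.36e-06 from limma) depends on the pseudocount. It passed the filter on low values through the AAN group, as did *Hoxd11*, whose sham mean was 0.0831 FPKM, so their calls do not support a statement on the list. The fifth was *Hes1*, a target of Notch signalling, with 1.51 (SE 0.25, adjusted p = 0.000276 from limma), and 0.75 after the median of ratios (adjusted p = 0.0512 from limma), where it was no longer past the limits. The Hox factors *Hoxd11* and *Hoxa11*, which pattern the embryonic kidney, rose by 2.61 and 2.47 on the log2 scale (adjusted p = 1.30e-06 and 1.22e-05 from limma), to 1.0 and 1.37 FPKM on average. *Osr1*, an early marker of the nephric lineage, was the 1 that fell, with a log2 change of -1.15 (SE 0.25, adjusted p = 0.00204 from limma), and like *Hes1* it was named after its values were seen. Rescaled by the median of ratios, 4 were higher and 1, again *Osr1*, lower. The AAN means of *Sox9*, *Sox11*, *Hoxd11* and *Hoxa11* were below that of *Sox4*.

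Among 8 paralogs of the members, 4 rose past both limits and 0 fell, with a median log2 change of 1.21. *Maff*, a small MAF protein induced by stress, rose from 0.493 ± 0.284 (SD, n = 4) to 10.3 ± 3.89 FPKM (SD, n = 6), with a log2 change of 4.16 (SE 0.38, adjusted p = 2.56e-06 from limma). *Sox12*, the SoxC member besides *Sox4* and *Sox11*, rose with a log2 change of 1.59 (SE 0.29, adjusted p = 0.000627 from limma), and 0.89 after the median of ratios. With median-of-ratios scaling, 3 of the 8 were higher and 1, *Esrrb* (-1.75), lower. *Sox11*, at 0 to 0.0146 FPKM in sham mice, was among the 4 and among these 3. It passed the filter through the AAN group, so its calls do not support a statement on this list either.

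Of 13 cofactors of the members, 2 rose and 0 fell past both limits, with a median log2 change of 0.37. After the median of ratios 0 were higher and 1 lower, with a median of -0.35. After quantile normalization 0 were higher and 2 lower, with a median of -0.59. Under that normalization 12.1% of all genes were lower past both limits, and the median of all genes was -0.12. The lower cofactors were *Nr0b2* under both scalings and *Ppargc1b* under the latter, named after their values were seen. *Ldb1*, the LIM domain binding partner of LHX1, rose from 5.59 ± 0.493 (SD, n = 4) to 15.7 ± 3.0 FPKM (SD, n = 6), with a log2 change of 1.45 (SE 0.18, adjusted p = 3.64e-05 from limma) and 0.69 after the median of ratios. *Ldb2*, its paralog, had a log2 change of 1.09 (SE 0.19, adjusted p = 0.000362 from limma) and 0.40 after the median of ratios. *Ppargc1a*, which encodes the ERRα coactivator PGC-1α, was at 5.05 ± 0.980 in the sham group (SD, n = 4) and 5.29 ± 2.17 FPKM in the AAN group (SD, n = 6). Its log2 change was 0.0075 (SE 0.25, adjusted p = 0.981 from limma), and B614 had the highest value, 9.57 FPKM, against 3.54 to 5.24 in the 5 others. The median of ratios gave -0.74 (adjusted p = 0.0215 from limma).

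Of 12 nephron induction signals, 9 were tested, and 5 rose and 0 fell past both limits, with a median log2 change of 1.29. *Wnt4*, the signal for the mesenchymal to epithelial transition, rose from 0.283 ± 0.0930 (SD, n = 4) to 4.33 ± 1.41 FPKM (SD, n = 6), with a log2 change of 3.50 (SE 0.27, adjusted p = 8.02e-07 from limma). *Cdh6*, a cadherin of the early proximal nephron, had a log2 change of 3.82 (SE 0.43, adjusted p = 1.50e-05). The Notch ligand *Jag1* and the receptor *Notch2* rose by 2.06 and 1.65 (adjusted p = 2.95e-06 and 0.000183 from limma), but *Notch2* was under the 2-fold limit after the median of ratios (0.91) and after quantile normalization (0.84). The fifth was *Wnt11*, at 1.29, and with median-of-ratios scaling 4, *Wnt11* among them, were higher and 1, *Bmp7* (-1.15), lower. *Wnt11* was at 0 to 0.0826 FPKM in sham mice and passed the filter on low values through the AAN group. Its calls therefore do not support a statement on the list. *Wnt11* and *Bmp7* were named after their values were seen. *Fgf8* is not among the genes analysed here, and *Gdnf* and *Ret* were under the filter.

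The 12 proximal tubule genes, which include known targets of HNF4A, had a median log2 change of -1.92, with 9 lower and 0 higher past both limits. The organic anion transporter gene *Slc22a6* was 230 to 409 FPKM in sham mice. It was 117 FPKM in B614 and 7.15 to 13.7 FPKM in the remaining 5, with a log2 change of -4.28 (SE 0.67, adjusted p = 0.000186 from limma). *Slc22a8* had a log2 change of -3.35 (SE 0.54, adjusted p = 0.000239 from limma), the dicarboxylate transporter gene *Slc13a3* of -2.84 (SE 0.53, adjusted p = 0.000714) and *G6pc*, the last enzyme of gluconeogenesis, of -2.57 (SE 0.51, adjusted p = 0.00100). B614 was the highest AAN mouse for 12 of the 12 genes, as it was for *Hnf4a*. It was also the highest for 12 of the 19 other mature factors and 9 of the 13 cofactors. Of the distal tubule and collecting duct markers it was highest for 6 of 7, and of the fibroblast markers for 0 of 7. Without B607 and B614, 9 of the 12 proximal tubule genes were again lower past both limits. The summed injured tubule, fibroblast and macrophage levels of B614 were the lowest of the AAN mice.

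The 12 oxidative metabolism genes bound by ERR had a median log2 change of -0.70, with 3 lower and 0 higher past both limits. By the adjusted p alone 6 were lower, as were 6.00% of all genes. *Acadm*, of mitochondrial fatty acid oxidation, had a log2 change of -1.43 (SE 0.28, adjusted p = 0.000946 from limma) and *Suclg1*, of the citric acid cycle, of -1.14 (SE 0.35, adjusted p = 0.0133). B614 was the highest AAN mouse for 11 of the 12 genes. The count of lower ones depended on the scaling. After the median of ratios 10 of the 12 were lower past both limits (10.7% of all genes), and after quantile normalization 5 were (12.1%).

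**Figure D4:**
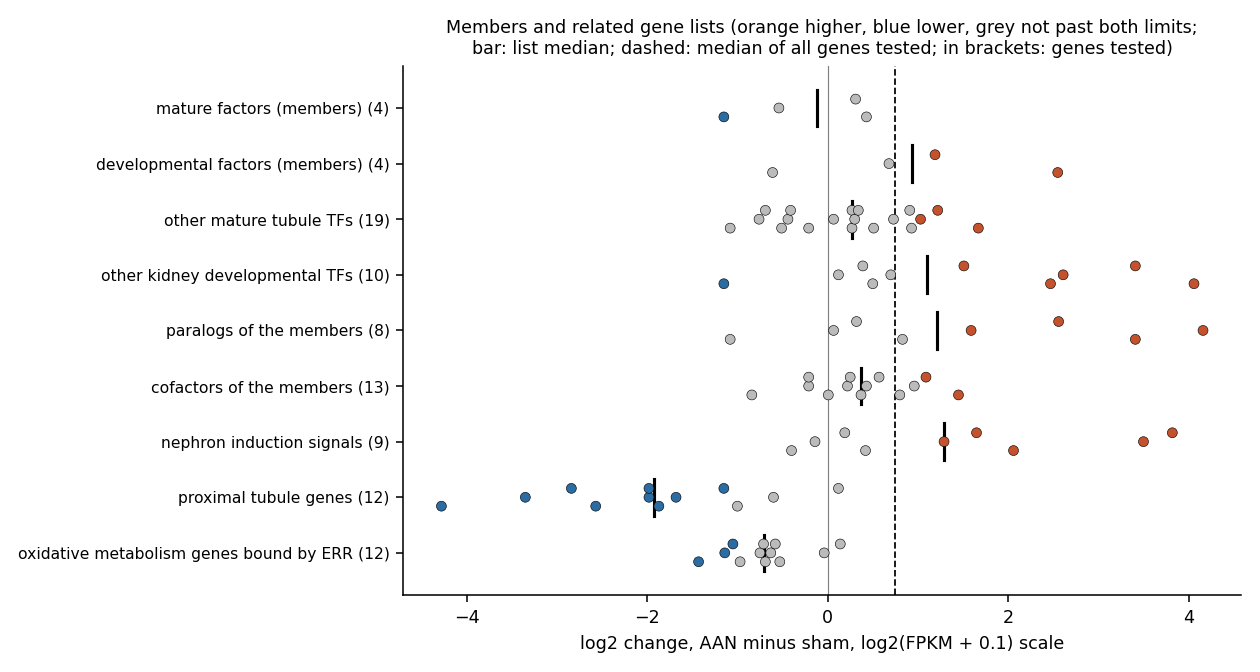
Log2 change, AAN minus sham, on the log2(FPKM + 0.1) scale (horizontal axis) of the 8 factors and of the tested genes of 7 related lists, in orange or blue where past both limits and in grey otherwise, with each list's median as a bar and the median of all genes, 0.75, as a dashed line. The proximal tubule genes lay furthest to the left, with a median of -1.92, and paralogs, developmental factors and induction signals reached furthest to the right.

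For each factor, the genes with the most similar deviations from the group means over the 10 mice were sought among 11506 protein-coding genes that averaged 1 FPKM or more, as a description, since all genes of a mouse share its library. *Hnf4a* was most like *Pdp2* (r = 0.992), *Lpar3* (r = 0.991) and *Alkbh5* (r = 0.983), and *Hnf4g* most like *Mansc1*, *Lrsam1* and *Bcorl1* (0.985, 0.983 and 0.971). Without B607 and B614 *Pdp2* was at 0.977 and *Lrsam1* at 0.980. The mice left were also used to pick these genes, so these values are no separate check. *Esrra* was most like *Gm2004*, *Dmtn* and *Aifm3* (0.957, 0.899 and 0.888) and *Maf* most like *Chmp4c*, *Bcl2l2* and *Ttc9c* (0.961, 0.950 and 0.948). Among the developmental factors, *Pax8* was most like *Ciz1*, *Prr3* and *Pde1b* (0.986, 0.983 and 0.979) and *Pax2* most like *Zfp146*, *Gstp1* and *Nfat5* (0.946, 0.945 and 0.940). The values for *Sox4* were 0.890 for *Gm20503*, 0.889 for *Rassf4* and 0.883 for *Lyrm1*. *Lhx1* was most like *Dach1*, *Dmxl1* and *Tgfbr3* (0.970, 0.940 and 0.928), of which the latter pair fell to 0.453 and 0.346 without B607 and B614, so that likeness rests on these mice.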

How the data were processed

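RNA from the renal cortex of 10 mice was sequenced as paired-end TruSeq libraries on the HiSeq Xten. The authors filtered the reads, mapped them to GRCm38.p4 with Hisat2 and derived FPKM of the annotated genes with Stringtie. The deposited values are FPKM for 21792 Ensembl genes per mouse, without counts, so limma was used in place of edgeR, which the authors used. The annotation release and the use of strand are not given in the sources used here.

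The members and gene lists were chosen with earlier results of these data known. Groups followed the sample labels, which give no batch, and 1 mouse was 1 replicate. Symbols, positions and exonic lengths came from GENCODE mouse release 21 (21650 genes matched), and sequences before gene starts from RefSeq on GRCm38.p6. Two-sided tests came from limma 3.58.1 (R 4.3.3; eBayes with a trend and robust) on log2(FPKM + 0.1), over 17129 genes that averaged 0.1 FPKM or more, with Benjamini-Hochberg adjustment over all of them, and limits of an adjusted p of 0.05 and 2-fold. Fold changes on this scale understate the change of low genes. The exact permutation test ran over the 210 splits of the mice (smallest p 0.00476). The fit was tested on simulated data.

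Named genes were the 8 members, up to 4 genes per related list with the largest change among those past both limits, *Ppargc1a*, and 3 genes per member by likeness. Some list members are not reported here by name. Depth was recovered from genes with 1 transcript, where 95.2% to 96.9% of low values were whole fragments within 0.05. It covers counting error only, and for members with several transcripts gives an upper limit of fragments. The median of ratios used genes above 0 in all mice. Alternatives were pseudocounts of 1 and 0.01, other filters and scalings, limma without trend or robust, no fold limit, each mouse left out, and mice with B tags alone. Tables and plots were made in Python 3.11.15 with pandas 2.3.3, and with matplotlib 3.10.9.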

Additional observations from a re-analysis of the deposited data

Results flagged for a closer look

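Dixon's test (95% critical value) compares the distance of the most extreme mouse from its neighbour with its group's whole range. It marked 3 of the 24 groups of values examined, and chance alone would mark about 1.20. *Lhx1* was 4.89 FPKM in the AAN mouse B614, against 1.58 to 2.27 FPKM in the 5 other AAN mice. The ratio of *Pax8* to *Pax2* was 5.93 in the AAN mouse B639, against 2.12 to 3.46 in the others. B639 also had the lowest depth, 13.4 M fragments, where the 5 others had 15.5 to 16.5 M. The causes were not tested.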

How the results depend on the processing

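The log2 change of *Sox4* kept its direction and stayed past both limits in all 22 alternatives. The cause of the changes below was not tested. With a pseudocount of 1 that of *Pax2* was 0.94, and the counts of higher genes were 1 among the 8 factors and 2909 among all genes (2 and 6126 as reported). Rescaled by the median of ratios, *Hnf4g* was at -0.19, *Maf* at -0.45 and *Pax8* at -0.080, all reversed, *Pax2* was at 0.46, and *Esrra* (-1.30) and *Lhx1* (-1.34) passed both limits, with 1 factor and 3193 genes higher and 3 factors and 1810 genes lower. After quantile normalization *Hnf4g* (-0.76) and *Maf* (-0.15) were reversed, *Pax2* was at 0.33 and *Lhx1* at -1.49, with 1 factor and 2487 genes higher and 2 factors and 2085 genes lower (1 and 588 as reported). With the same FPKM total *Hnf4a* was at -0.79, *Pax8* at 1.04 and *Esrra* at -0.17 (adjusted p = 0.509 from limma, against 0.00385 as reported). That scaling gave 3 factors and 8866 genes higher and 0 factors and 330 genes lower. With the mitochondrially encoded genes left out of the total, *Hnf4a* was at -1.13, *Pax8* at 0.70 and *Esrra* at -0.52. A mean of at least 1 FPKM left 4025 genes higher among 12271 tested, against 6126 among 17129 as reported. Without a fold limit *Esrra* (-0.54) and *Pax8* (0.68) passed, with 2 factors lower, 9482 genes higher and 1027 lower.

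With each mouse left out in turn, *Hnf4a* was at -1.31 to -0.96 (lowest size without B607), *Pax2* at 0.91 (without B634) to 1.40, *Hnf4g* at 0.017 to 0.90, *Esrra* at -0.57 to -0.50, *Maf* at 0.22 to 0.46, *Pax8* at 0.59 to 0.79, *Lhx1* at -0.83 to -0.41 and *Sox4* at 2.39 to 2.66. The factors past both limits were then 1 to 2 higher and 0 to 1 lower. The mature minus developmental difference was -1.27 to -1.11 with each mouse left out and -1.15 with a pseudocount of 1. Leaving out B607 and B614 together was chosen after seeing the data. *Hnf4g* was not tested under the filter of 1 FPKM. No paired analysis was possible because no tag occurs in both groups. The low level of *Hnf4g* limits what its values can show.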
